A study of Mus musculus with 6 samples.

Results

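The cytochrome P450 (Cyp) genes were examined in ATAC-seq peak lists from crypts of the mouse intestine. They were taken as every protein-coding gene whose symbol is Cyp followed by a number, a letter and a number, which gave 98 of the 21938 protein-coding genes of the annotation, in 38 subfamilies. ATAC-seq relies on a transposase that inserts sequencing adapters into accessible DNA. Peaks are the stretches with more such insertions than their surroundings. A peak was given to a Cyp gene when its summit lay in the gene body or within 5 kb of it, and 139 of 71286 consensus peaks, formed by merging overlapping peaks of the lists, were assigned in this way. The lists came from 3 wild-type (WT) and 3 Arid3a cKO crypt samples. In cKO animals the floxed Arid3a gene, encoding a DNA-binding protein of the ARID family, was deleted by tamoxifen-inducible Cre under the Villin promoter. All animals, WT included, received tamoxifen on 3 days in a row and were culled 1 month after the first dose. Villin drives Cre in epithelial cells, so other cells in a crypt preparation keep Arid3a. The study asked how chromatin accessibility differed between the genotypes.

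Cytochrome P450 enzymes are heme proteins that insert an oxygen atom into lipids, hormones, drugs and food compounds, with electrons passed on by a reductase. Families 1 to 3 act mainly on foreign compounds, family 4 on fatty acids and eicosanoids, and the remaining families on sterols, steroid hormones, bile acids, vitamin D and retinoic acid. The intestinal epithelium is, after the liver, a main site of P450 metabolism, and many Cyp genes are arranged as tandem clusters of closely related copies.

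The lists held 40492 to 58297 peaks, shortest in WT 1 and longest in cKO 1. They give no read counts, but the fold and p columns imply a number of fragments over each summit. It was found for 541 of 544 pairs of a Cyp peak and a list, with a median of 31, and is given below for some peaks. A promoter peak was called in all 6 lists for 5 of 6 genes marking intestinal epithelium (Epcam, Cdh1, Vil1, Krt8 and Cdx2, but not Cdx1) and for 5 of 5 crypt and proliferation genes, among them Lgr5 and Olfm4. It was called in all lists for 0 of 4 immune genes, 1 of 4 hepatocyte genes (Ttr, but not Alb), 1 of 3 adrenal and gonad genes (Nr5a1) and 2 of 4 stromal or endothelial genes (Col1a1 and Pdgfra, but not Col3a1 and Pecam1). Over all protein-coding genes the share was 56%. The promoter of Arid3a itself was called in every list, at percentiles of 64.7, 61.1 and 54.4 in WT and 46.5, 56.7 and 43.7 in cKO samples. These values overlapped, so the peak calls did not check the genotype labels. A percentile here is the rank of a peak's fold over background among all peaks of its own list, where 100 is the highest fold. In bulk chromatin, fewer cells with an open site and a less open site in every cell cannot be told apart.

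The sequences below carry the main observations and are printed 5′ to 3′ on the strand of the gene, from the GRCm38 genome. Bases annotated as untranslated were left out. For Cyp3a11 this took away 28 bases of the window, which hold its HNF4 match. In the following group, capitals mark exact matches, on either strand, to the motifs searched: CAAAGTCCA for HNF4, GTTAATNAT for HNF1, TGANTCA for AP-1, TNGCGTG for AHR, AGATAA for GATA factors, ATTAAA or ATCAAA for ARID3, AGGTCA for the nuclear receptor half-site and TATAAA for the TATA box. Cyp20a1 and Cyp39a1 are shown as the bases before the start site of the Cyp promoters with the highest ranks. Neither stretch holds its peak summit. The window around the Cyp39a1 summit, used for the motif counts, held 2 half-site matches and no ARID3 match. That of Cyp20a1 held no match. Cyp3a11, Cyp3a13, Cyp2c65 and Cyp1a1 are shown as promoters of drug-metabolizing enzymes of the gut, around the peak summit. Cyp2j13, Cyp4f39 and Cyp26b1 are shown for the peaks called in cKO samples alone or with the smallest unadjusted p between the genotypes.
Cyp20a1 promoter, chr1:60343123-60343322, plus strand: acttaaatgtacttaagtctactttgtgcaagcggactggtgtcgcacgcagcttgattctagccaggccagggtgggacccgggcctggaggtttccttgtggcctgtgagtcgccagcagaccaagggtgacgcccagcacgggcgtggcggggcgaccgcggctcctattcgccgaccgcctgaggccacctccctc
Cyp39a1 promoter, chr17:43667225-43667424, plus strand: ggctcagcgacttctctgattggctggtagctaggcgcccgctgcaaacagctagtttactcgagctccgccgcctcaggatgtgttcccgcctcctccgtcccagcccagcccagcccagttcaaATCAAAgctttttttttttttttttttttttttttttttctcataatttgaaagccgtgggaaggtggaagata
Cyp3a11 promoter, chr5:145879965-145880137, minus strand: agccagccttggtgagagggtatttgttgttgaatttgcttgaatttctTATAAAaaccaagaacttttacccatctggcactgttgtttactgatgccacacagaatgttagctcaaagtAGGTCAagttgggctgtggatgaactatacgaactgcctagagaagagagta
Cyp3a13 promoter, chr5:137921711-137921911, minus strand: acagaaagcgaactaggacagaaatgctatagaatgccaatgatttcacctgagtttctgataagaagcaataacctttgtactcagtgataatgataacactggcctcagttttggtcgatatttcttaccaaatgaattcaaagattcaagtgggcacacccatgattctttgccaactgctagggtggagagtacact
Cyp2c65 promoter, chr19:39060817-39061014, plus strand: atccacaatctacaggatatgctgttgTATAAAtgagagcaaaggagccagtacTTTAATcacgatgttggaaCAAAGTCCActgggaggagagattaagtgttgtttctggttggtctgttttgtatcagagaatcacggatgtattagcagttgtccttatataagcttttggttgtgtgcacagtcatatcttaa
Cyp1a1 promoter, chr9:57696544-57696744, plus strand: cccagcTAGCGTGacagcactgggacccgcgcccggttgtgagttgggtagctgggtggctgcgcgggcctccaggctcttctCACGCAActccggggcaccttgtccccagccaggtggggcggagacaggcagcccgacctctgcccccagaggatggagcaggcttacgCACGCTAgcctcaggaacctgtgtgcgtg
Cyp2j13 intron peak, chr4:96028524-96028724, minus strand: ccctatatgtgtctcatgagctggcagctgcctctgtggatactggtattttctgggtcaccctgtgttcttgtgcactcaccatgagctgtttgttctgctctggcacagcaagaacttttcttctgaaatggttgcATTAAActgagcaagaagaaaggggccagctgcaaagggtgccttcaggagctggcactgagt
Cyp4f39 exon peak, chr17:32468545-32468745, plus strand: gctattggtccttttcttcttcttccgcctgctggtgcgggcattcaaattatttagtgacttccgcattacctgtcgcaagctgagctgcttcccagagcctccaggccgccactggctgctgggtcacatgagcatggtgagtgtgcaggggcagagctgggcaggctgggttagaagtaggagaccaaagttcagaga
Cyp26b1 intron peak, chr6:84583446-84583646, minus strand: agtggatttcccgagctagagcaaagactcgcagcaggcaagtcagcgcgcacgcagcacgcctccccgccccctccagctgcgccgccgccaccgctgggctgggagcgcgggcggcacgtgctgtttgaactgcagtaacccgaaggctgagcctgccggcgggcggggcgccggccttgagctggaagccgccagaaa

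The next group holds the coding part of the last exon of 4 Cyp4f genes, each of which lay under a peak in all 6 lists. Capitals mark the bases that were the same in all 7 Cyp4f genes whose last exon had 175 coding bases, compared base by base without gaps. An inserted or missing base in any of the 7 would shift later bases out of register, so lower case does not show that a base differs after alignment.
Cyp4f17 last exon, chr17:32528717-32528891, plus strand: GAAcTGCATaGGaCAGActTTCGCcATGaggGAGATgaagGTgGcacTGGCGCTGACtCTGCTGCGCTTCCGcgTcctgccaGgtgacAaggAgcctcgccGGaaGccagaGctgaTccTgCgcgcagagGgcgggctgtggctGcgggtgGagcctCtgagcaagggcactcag
Cyp4f40 last exon, chr17:32676303-32676477, plus strand: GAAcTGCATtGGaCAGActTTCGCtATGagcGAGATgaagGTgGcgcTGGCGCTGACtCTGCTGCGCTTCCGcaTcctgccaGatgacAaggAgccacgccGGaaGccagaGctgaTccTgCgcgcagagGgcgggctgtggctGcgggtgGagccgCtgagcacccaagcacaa
Cyp4f13 last exon, chr17:32924780-32924954, minus strand: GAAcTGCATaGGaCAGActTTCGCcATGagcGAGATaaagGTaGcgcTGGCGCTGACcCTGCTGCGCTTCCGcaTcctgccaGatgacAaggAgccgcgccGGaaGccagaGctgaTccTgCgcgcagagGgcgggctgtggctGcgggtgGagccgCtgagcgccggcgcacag
Cyp4f18 last exon, chr8:71988563-71988737, minus strand: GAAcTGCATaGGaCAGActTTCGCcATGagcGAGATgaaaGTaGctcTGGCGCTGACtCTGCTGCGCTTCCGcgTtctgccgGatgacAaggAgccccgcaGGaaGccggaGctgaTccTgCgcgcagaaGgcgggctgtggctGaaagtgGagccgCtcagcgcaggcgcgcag

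A minority of Cyp promoters was open in every sample. A promoter peak, with a summit from 1000 bp upstream to 100 bp downstream of an annotated start site, was called in all 6 lists for 27 of 98 Cyp genes (27.6%), against 56% of all protein-coding genes. It was called in 1 to 5 lists for 20 Cyp genes and in 0 lists for 51 (52.0%, against 38.3% of all genes). At least 1 peak of any kind was found at 63 Cyp genes, and 35 had none. Of the 139 Cyp peaks, 59 (42.4%) were called in all 6 lists, against 45.9% of all consensus peaks. Cyp promoters were poor in CpG: the median ratio of observed to expected CpG, from 250 bp before to 50 bp after the start, was 0.151 against 0.525 for all genes. The ratio was at least 0.6 in 9 of 98 Cyp promoters (9.18%), against 44.4% of all promoters. Among promoters called in all 6 lists it was at least 0.6 in 7 of 27 Cyp genes (25.9%), against 68.4% of all such genes.

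**Figure D1:**
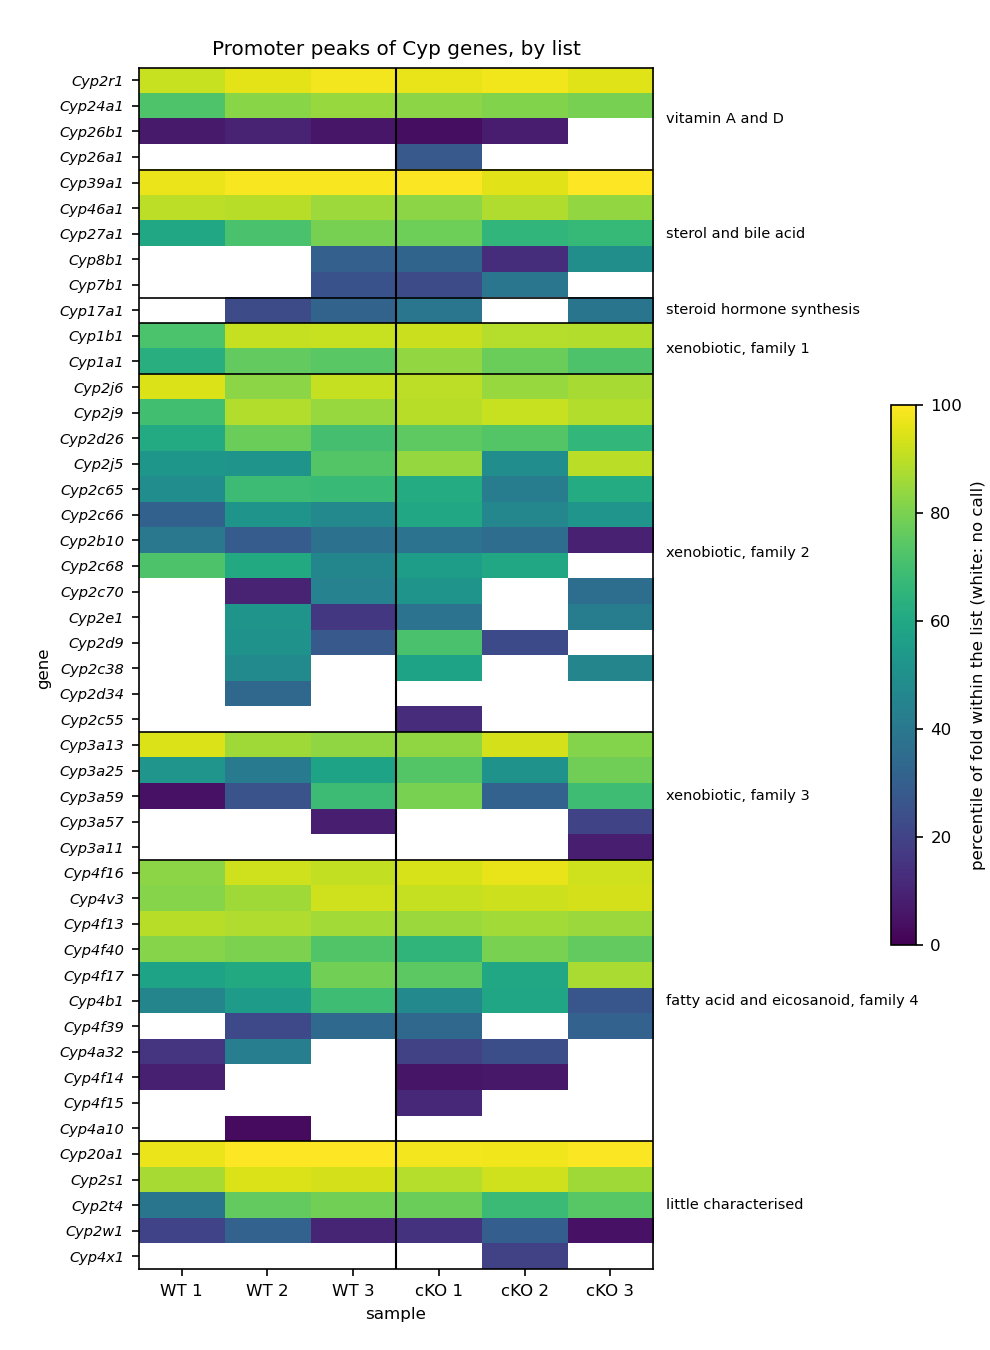
Percentile of fold within its own list (color, 0 to 100) of the promoter peak of the 47 Cyp genes with a call in at least 1 list, in the 3 WT and 3 cKO lists. White means that no promoter peak was called. The 27 genes with 6 calls span percentiles from 4.81 to 99.8, and the vitamin D gene Cyp2r1 and the sterol gene Cyp39a1 are high in every list.

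Among the enzymes of vitamin D and retinoic acid, 2 of 6 genes had a promoter peak in all lists. Cyp2r1, which carries out the initial hydroxylation of vitamin D, was at percentiles of 91.7, 96.0 and 98.2 in WT and 96.8, 97.9 and 95.3 in cKO samples. Cyp24a1, which inactivates the vitamin D hormone, was at 72.3, 82.4 and 84.5 in WT and 82.8, 80.9 and 79.4 in cKO samples, in a peak that also covers the promoter of Pfdn4. The genotypes overlapped for both genes. Cyp27b1, which makes the active hormone, had no promoter peak, but a peak 1243 bp inside the gene was called in all 6 lists, at percentiles of 47.9 to 66.0. Cyp26b1 and Cyp26a1 break down retinoic acid. Their promoters were called in 5 lists and in 1 list (cKO 1), the former only at percentiles of 3.59 to 9.54. Cyp26c1 had no peak.

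Among sterol and bile acid enzymes, 3 of 6 promoters were called in all lists. Cyp39a1, an oxysterol hydroxylase, was at 97.3, 98.9 and 99.0 in WT and 99.5, 95.3 and 99.8 in cKO samples. Its peak covers a divergent promoter shared with Slc25a27, whose start site lies 32 bp from the summit, so the rank cannot be given to Cyp39a1 alone. Cyp46a1, a cholesterol hydroxylase best known from neurons, was at 82.7 to 90.2, and Cyp27a1, the mitochondrial sterol hydroxylase of the alternative bile acid pathway, was at 59.4 to 79.4. The promoter of Cyp8b1, which directs synthesis towards cholic acid, was called in 4 lists (1 WT and 3 cKO), and that of the oxysterol hydroxylase Cyp7b1 in 3 (1 WT and 2 cKO). Cyp7a1, the rate-limiting enzyme of bile acid synthesis in liver, had no peak. The steroid hormone enzymes had no promoter called in all lists. Cyp11a1, Cyp11b1, Cyp11b2, Cyp19a1 and Cyp21a1 had no peak, and Cyp17a1 was called in 4 lists (2 WT and 2 cKO) at percentiles of 22.9 to 39.4. The sequence of Cyp21a1 occurs again in patch or alternate sequences of the assembly, which limits its missing calls.

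In family 1, whose genes are induced through the aryl hydrocarbon receptor (AHR), both Cyp1a1 and Cyp1b1 had a promoter peak in all lists and Cyp1a2, known mainly from liver, had none. Cyp1a1 was at 62.7, 76.0 and 74.4 in WT and 83.8, 77.7 and 72.0 in cKO samples, with its summit 969 bp upstream of the start site, and the sequence printed above holds 3 matches to the AHR motif TNGCGTG. Cyp1b1 was at 71.8, 91.3 and 91.7 in WT and 92.0, 88.8 and 88.3 in cKO samples. The ranges of the genotypes overlapped in both genes, and WT 1, the shortest list, held the lowest value of each.

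The family 2 genes grouped as enzymes of foreign compounds were the largest role group. Cyp2r1, counted with vitamin D, and Cyp2s1, Cyp2t4, Cyp2u1 and Cyp2w1, counted as little characterised, are not among them. Of these 43 genes, 7 promoters were called in all lists, 7 in some and 29 in none, and 21 genes had no peak. In the Cyp2j subfamily of arachidonic acid epoxygenases, the promoters of Cyp2j6, Cyp2j9 and Cyp2j5 were called in all lists and those of the other 5 genes in none. Cyp2j6, known from the small intestine, was at 94.8, 82.7 and 91.1 in WT and 90.1, 84.6 and 86.8 in cKO samples. Cyp2j9 was at 69.6 to 91.5 and Cyp2j5 at 49.1 to 89.7, and the genotypes overlapped in each. Cyp2c is another epoxygenase subfamily, with 15 genes that form a tandem cluster except for Cyp2c23, which lies apart on the same chromosome. The promoters of Cyp2c65 and Cyp2c66, both known from the gut, were called in all lists, 4 were called in some and 9 in none. Cyp2c65 was at 49.0, 68.5 and 67.9 in WT and 61.6, 42.5 and 61.6 in cKO samples. Cyp2c66 was at 31.1 to 59.8.

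The partly called promoters of family 2 were those of Cyp2c68 (5 lists, absent from cKO 3), Cyp2c70 (4 lists), Cyp2c38 (3 lists), Cyp2c55 (1 list, cKO 1), Cyp2e1, the ethanol-inducible enzyme (4 lists), Cyp2d9 (4 lists) and Cyp2d34 (1 list, WT 2). Cyp2c55, induced in gut by foreign compounds, had in addition a peak 1723 bp upstream of its start that was called in all lists, at 48.9 to 81.8. Cyp2d26 was the single Cyp2d gene with a promoter in every list, at 61.1 to 77.7. Cyp2b10, the classical target of the receptor CAR, was the single Cyp2b gene, at 40.0, 29.2 and 37.6 in WT and 38.1, 35.9 and 9.33 in cKO samples. In cKO 3 it was far below the other lists. None of the 4 Cyp2a genes had a promoter peak. Cyp2u1, a fatty acid hydroxylase listed among the gut genes and counted as little characterised, had 4 peaks inside or downstream of the gene but none at the promoter. Its promoter sequence occurs again in patch or alternate sequences of the assembly, which limits that missing call.

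In family 3, which handles many drugs, the promoters of Cyp3a13, Cyp3a25 and Cyp3a59 were called in all lists. Cyp3a13, the mouse Cyp3a gene best known from the intestine, was at 94.7, 85.6 and 83.3 in WT and 83.6, 93.7 and 81.6 in cKO samples. Cyp3a11, the main Cyp3a enzyme of mouse liver and a target of the receptor PXR, was called at its promoter in cKO 3 alone, at a percentile of 8.48. A peak 1425 bp upstream of Cyp3a11 was called in all lists, at 51.7, 63.9 and 53.4 in WT and 71.5, 55.5 and 56.4 in cKO samples. The promoter of Cyp3a57 was called in 2 lists. Cyp3a44, Cyp3a41a and Cyp3a41b had no promoter peak but each had a peak in an intron, called in 3, 2 and 2 lists.

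**Figure D2:**
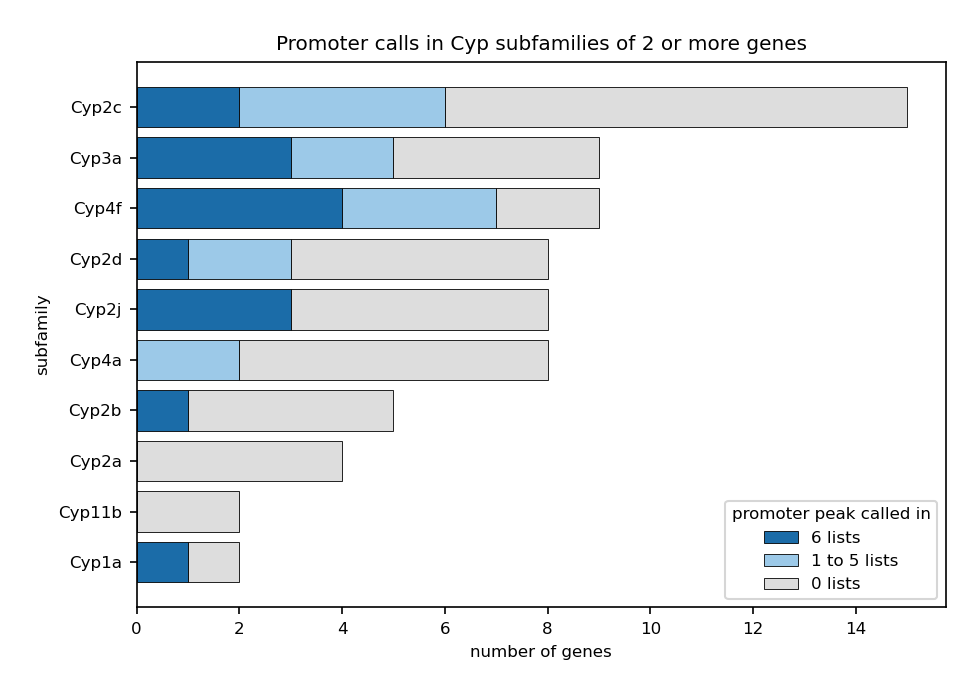
Number of genes (x axis) in each Cyp subfamily of 2 or more genes whose promoter peak was called in 6 lists, in 1 to 5 lists or in 0 lists. Cyp4f has 4 of its 9 promoters called in all lists, while Cyp2a has 0 of 4 and Cyp4a has 0 of 8.

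Family 4 divided by subfamily. Of the 8 Cyp4a genes, which hydroxylate the end of fatty acid chains under control of PPARα, none had a promoter called in all lists. Cyp4a32 was called in 4 lists and Cyp4a10 in 1 (WT 2), and 5 Cyp4a genes had no peak. Cyp4b1 was at 45.5, 55.0 and 69.1 in WT and 47.1, 58.8 and 26.7 in cKO samples. Cyp4v3, a fatty acid hydroxylase of many tissues, was at 81.7, 85.8 and 92.9 in WT and 91.3, 92.3 and 93.6 in cKO samples. The Cyp4f genes, whose products inactivate leukotrienes and other eicosanoids and start the breakdown of vitamin E and K, were the subfamily with most peaks: 28 at 9 genes, of which 19 were called in all lists. No Cyp4f gene was without a peak. The promoters of Cyp4f13, Cyp4f16, Cyp4f17 and Cyp4f40 were called in all lists, Cyp4f39 in 4, Cyp4f14 in 3, Cyp4f15 in 1 (cKO 1), and Cyp4f18 and Cyp4f37 in none.

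Every Cyp4f gene had a peak in its last exon in all 6 lists. The share was 9 of 9 Cyp4f genes and 0 of 88 other Cyp genes with 2 or more exons, and 2.52% of 20504 protein-coding genes of that kind, counting summits outside every promoter window. This comparison was made after the peak positions had been seen. The summits lay within 119 bp before and 131 bp after the last coding base, 6 of them inside the coding part and 3 past it. For Cyp4f18, which sits alone on chromosome 8, and for Cyp4f37 this was the only peak of the gene. The other 8 Cyp4f genes form a cluster on chromosome 17.

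The last-exon peaks ranged from the highest ranks of a list to ranks below the median of 66.2 over all peaks called in 6 lists. Cyp4f17 was at 92.1, 97.3 and 98.8 in WT and 99.4, 96.0 and 98.9 in cKO samples, while its promoter peak was at 58.1 to 87.3. Cyp4f16 was at 80.1, 90.8 and 85.0 in WT and 97.4, 80.8 and 95.3 in cKO samples. Cyp4f13 was at 92.2, 87.0 and 92.9 in WT and 91.1, 75.01 and 77.8 in cKO samples. The genotypes overlapped in all 3 genes. In Cyp4f16, Cyp4f13 and Cyp4f40, the other genes with a constant promoter, the ranges of last exon and promoter overlapped (for Cyp4f40, 65.6 to 82.3 and 65.3 to 81.9). Cyp4f14 was at 45.6 to 80.2, Cyp4f18 at 46.2 to 90.2 and Cyp4f15 at 53.4 to 91.5, each below that median in at least 2 lists. Over the 9 genes and 6 lists the percentiles ran from 45.6 (Cyp4f14 in WT 1) to 99.4. The difference of the genotype means was above 0 for 7 genes and below 0 for 2, against 16168 and 16580 of all 32748 peaks called in 6 lists. The 9 genes share the same 6 lists, and no test was made on this count. All 8 coding-exon peaks of Cyp4f were called in 6 lists, against 0 of the 6 coding-exon peaks of other Cyp genes and 48.2% of 2130 coding-exon peaks of all genes.

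Other measurements stand beside the last-exon peaks. The windows of 100 bp on either side of their summits held 53.7% to 65.2% G and C. The median was 50.7% for all Cyp peaks and 55.2% for Cyp promoter peaks called in 6 lists, which ran from 38.8% to 72.6%. The CpG ratio of the last-exon windows was 0.554 to 0.849. Among the 7 genes with 175 coding bases in the last exon, pairs without Cyp4f39 were 86.3% to 93.7% identical. Cyp4f39, whose last exon is not printed, was at 44.0% to 46.9% with the other 6 when compared without gaps. An inserted or missing base would lower such values, so they do not show how far its sequence differs. Of the stretches of 50 bases in these peaks, 0% to 9.98% occurred more than once in the genome. The part of base composition or of shared sequence in the calls was not tested. The distance to the nearest annotated start site of the gene itself was 441 to 595 bp in Cyp4f37, Cyp4f39 and Cyp4f13, where a further annotated transcript starts, and 4294 to 22311 bp in the other 6 genes.

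**Figure D3:**
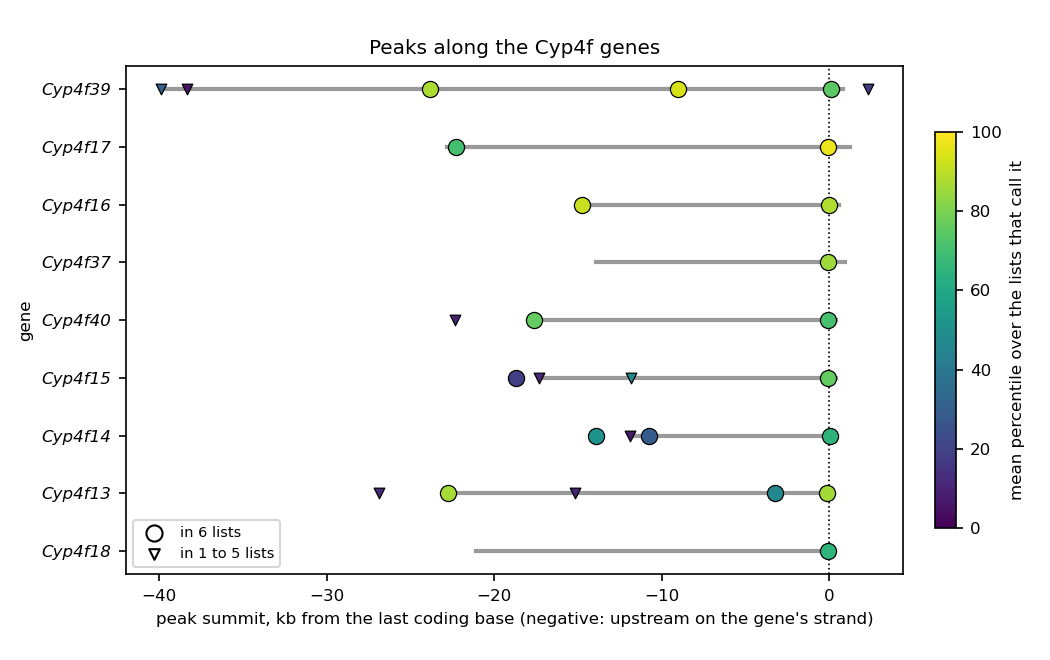
Positions of the 28 peaks of the 9 Cyp4f genes, in kb from the last coding base on the strand of the gene (dotted line), with the annotated gene as a grey line and the mean percentile as color. Large circles are called in all 6 lists and small triangles in fewer. Each gene has a large circle at the end of its coding sequence.

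Other genes also had constant peaks outside their promoters. Of the 40 Cyp genes with a peak in all lists, 13 had none at the promoter in all lists: Cyp4f14, Cyp4f15, Cyp4f18, Cyp4f37, Cyp4f39, Cyp4a10, Cyp3a11, Cyp26b1, Cyp27b1, Cyp2b19, Cyp2c23, Cyp2c55 and Cyp2d22. The constant peak of Cyp2c23, an epoxygenase, lay 4113 bp inside the gene at 71.3 to 82.7. Cyp2d22 had its constant peak 321 bp inside the gene, at 61.6, 77.8 and 72.6 in WT and 89.8, 73.5 and 88.0 in cKO samples. By position, 50 Cyp peaks were at promoters (27 of them in all lists), 46 in introns (11), 14 in coding exons (8), 13 in the upstream flank (5), 12 in the downstream flank (5), 3 in untranslated exons (3) and 1 in an exon of a noncoding transcript. The nearest start site belonged to a gene other than a Cyp gene for 12 of the 139 peaks, as for the downstream peak given to Cyp1a1 whose summit lies 5 bp from the start of Edc3. At the 5 kb limit, 6 peaks lay in the last kb inside and 6 in the next kb outside.

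Of the 6 little characterised genes, 4 had a promoter called in all lists. Cyp20a1, an orphan P450, had the highest lowest rank of all Cyp promoters, at 96.99, 99.8 and 99.7 in WT and 98.2, 97.8 and 99.4 in cKO samples. Cyp2s1, expressed in epithelia outside the liver, was at 87.0, 94.9 and 93.5 in WT and 88.8, 92.6 and 85.7 in cKO samples. Cyp2t4 was at 38.8 to 78.5, with its lowest value in WT 1, and Cyp2w1 was at 4.94 to 31.3. Cyp4x1 was called in 1 list (cKO 2). The CpG ratio of the Cyp20a1 and Cyp2r1 promoters was 0.77 and 0.71, whereas Cyp4f16 reached percentiles of 82.5 to 96.7 with a ratio of 0.09.

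The genes were also grouped by the tissue they are known from. Of 22 Cyp genes known in intestinal epithelium, 15 had a promoter peak in all lists, 5 in some (Cyp2c55, Cyp2c68, Cyp2d34, Cyp3a11 and Cyp4f14) and 2 in none (Cyp2u1 and Cyp3a44). Of 22 Cyp genes known mainly from liver, adrenal or gonad, 0 had one in all lists, 5 in some and 17 in none. The share with one in all lists was 27.6% of all Cyp genes and 56% of all protein-coding genes. Both lists were drawn up with earlier results of these data known, and no test was made between them. The partners of the P450 enzymes were described in the same way. The promoter was called in all lists for 5 of 6 electron donors, among them Por, the common reductase, and for 13 of 14 nuclear and aryl hydrocarbon receptors that regulate Cyp genes. The exceptions were Cyb5r3, with 0 lists, and Ahrr, the AHR repressor, with 5. These counts stand beside the 56% of all protein-coding genes with a promoter called in all lists. The receptors Nr1i2 (PXR) and Ahr were at 45.1 to 53.5 and 90.2 to 98.5. By limma, 0 of the donors and receptors with 6 calls passed the test between genotypes (adjusted p = 0.776 or more), and the smallest unadjusted p was that of Vdr.

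Tandem copies share sequence, and short reads from repeated sequence cannot be placed on 1 copy. More than 50% of the 50-base stretches of the promoter occurred again in the genome for 7 Cyp genes: Cyp2c29, Cyp3a41a, Cyp3a41b, Cyp2a4, Cyp2a5, Cyp2b9 and Cyp2b13. All 7 had a promoter called in 0 lists. With the patch and alternate sequences of the assembly counted, Cyp2u1 and Cyp21a1 reached 100%, which made 9 genes. The paper's alignment command names the toplevel sequence of GRCm38. Where reads were aligned to the patch sequences too, a missing call at Cyp2u1 or Cyp21a1 does not show a closed promoter. The median repeated share was 0% for promoters called in 6 lists, 3.52% for those in 1 to 5 and 5.42% for those in 0. The other 42 promoters called in 0 lists were at or below 50% on both counts. The part of repeated sequence in the missing calls was not tested.

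Motif matches were counted in the window of 100 bp on either side of each summit. The HNF4 motif, bound by a receptor that acts in liver and enterocytes, was found in 8 of 139 Cyp peaks (5.76%), against 1.53% of all consensus peaks. The 8 peaks belonged to Cyp2c65, Cyp2c68, Cyp2c70, Cyp2c23, Cyp2j9, Cyp3a11, Cyp4f14 and Cyp8b1. The TATA box was found in 15.8% of Cyp peaks against 8.47%, and GATA in 16.5% against 12.8%. The ARID3 motif was found in 17.3% against 16.1%, HNF1 in 2.16% against 1.46%, AP-1 in 7.91% against 10.4%, the half-site in 12.9% against 15.3% and AHR in 2.16% against 3.13%. Among peaks called in 6 lists, the TATA box was in 6.78% of Cyp peaks against 6.93% of all, the ARID3 motif in 6.78% against 12.6%, which turns its direction, and HNF4 in 6.78% (4 of 59) against 1.75%. Matches are descriptions of the sequence and do not show that a factor was bound. The Cyp2c65 promoter printed above holds an HNF4 match, an ARID3 match and a TATA box, and the Cyp3a13 promoter holds none of the motifs searched.

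The number of Cyp peaks was compared between the genotypes. The lists held 72, 89 and 99 Cyp peaks in WT and 114, 87 and 93 in cKO samples, a mean of 86.7 ± 13.7 against 98.0 ± 14.2 (SD, n = 3). The difference of 11.3 peaks was 3 in lists of equal length, 6 with the gene body alone, 3.33 without cKO 1, 4 without WT 1 and 17.5 without WT 3. The ranges overlapped, and the lowest and the highest number belonged to the shortest and the longest list. Cyp peaks were 0.178%, 0.176% and 0.180% of the lists in WT and 0.196%, 0.187% and 0.181% in cKO samples. The shares did not overlap, but the lowest cKO share and the highest WT share were nearly equal. Promoters were called at 31, 38 and 37 Cyp genes in WT and 42, 35 and 35 in cKO samples. More cKO than WT lists called 47 of the 139 peaks (33.8%), against 28.5% of all peaks, and more WT than cKO lists called 17 (12.2%), against 15.7%.

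A pair of Cyp peaks was present in every cKO list and in no WT list, which is 2 of 139 Cyp peaks against 0.464% of all peaks, and the reverse held for 0 Cyp peaks against 0.111%. Both lay in introns of Cyp2j genes. The Cyp2j13 peak, printed above, was at percentiles of 18.5, 24.98 and 42.3 in cKO 1, 2 and 3, with 12, 12 and 20 fragments over the summit as implied by the fold and p columns. Its nearest start site, at 7383 bp, was that of Hook1. The Cyp2j11 peak was at 36.6, 12.3 and 31.4, with 16, 9 and 14 fragments. Among peaks with a −log10 q of at least 5, Cyp2j13 kept 1 cKO call and Cyp2j11 kept 2, and in lists of equal length they kept 2 and 0. No test was made on these calls. With 1 list left out, the Cyp2j13 and Cyp2j11 peaks kept 0 WT calls and every remaining cKO call. Leaving a list out makes the rule less strict, so further peaks can meet it. The number of cKO-only Cyp peaks was then 5 without WT 3 and 4 without cKO 1 or without cKO 3. The number of WT-only Cyp peaks was 4 without WT 1. The shares over all peaks under the less strict rule were not computed.

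In the rank of fold, 0 of 59 Cyp peaks called in all lists passed the test in either direction (limma, Benjamini-Hochberg adjusted over 32748 peaks, threshold 0.05), as did 0% of all peaks in each direction. At an unadjusted p under 0.05 there were 2 Cyp peaks and 1964 of all peaks (6%). The mean percentile was higher in cKO samples for 37 Cyp peaks and lower for 22, against 16168 and 16580 of all 32748 peaks. The median difference was 1.70 percentile points against -0.0946 over all peaks. Cyp peaks share clusters and lists, and no test was made on these counts. The genotypes did not overlap for 2 Cyp peaks higher in cKO samples (3.39%, against 4.66% of all peaks) and 2 lower (3.39%, against 7.04%).

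The Cyp peak with the smallest p lay on exon 3 of Cyp4f39, whose human counterpart acts on the ultra-long fatty acids of skin ceramides. It was at 74.4, 76.3 and 88.3 in WT and 94.1, 91.8 and 98.2 in cKO samples, and every cKO value lay above every WT value. The fragments over the summit were 35, 48 and 65 in WT and 92, 52 and 76 in cKO samples. The difference in normal score of the rank was 0.83 (SE 0.24, unadjusted p = 0.00685, adjusted p = 0.776 by limma). The next was an intron peak of Cyp26b1, at 10.4, 8.73 and 6.94 in WT and 30.8, 28.0 and 9.07 in cKO samples, where cKO 3 lay among the WT values (unadjusted p = 0.0467, adjusted p = 0.776 by limma). The promoter of Cyp4f16 was the other peak wholly higher in cKO samples, at 82.5, 92.7 and 90.9 against 93.9, 96.7 and 92.9. The promoter of Cyp4f13 (89.3, 88.1 and 86.3 against 84.8, 86.0 and 84.8) and the intron peak of Cyp4f14 (31.4, 36.6 and 36.8 against 26.6, 28.97 and 10.8) were wholly lower.

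The largest positive differences of mean percentile were those of the Cyp3a59 promoter (27.2 points), an intron peak of Cyp4f13 (25.7), the Cyp3a25 promoter (17.4), the last-exon peak of Cyp4f18 (16.5) and the Cyp4f39 exon peak (15.1). The Cyp3a59 promoter was at 4.81, 25.4 and 68.7 in WT and 80.0, 31.4 and 69.0 in cKO samples, and the SDs within WT and cKO samples, 32.6 and 25.5 points, were close to the difference. Of the 50-base stretches in this peak and in that of Cyp3a25, 26.1% and 26.3% occurred more than once in the genome. The Cyp4f13 intron peak was at 18.1, 59.4 and 24.5 in WT and 46.9, 77.2 and 55.0 in cKO samples, which overlapped. The largest negative differences were those of the constant peaks of Cyp4b1 (-14.1 in an intron and -12.3 at the promoter), the intron peak of Cyp4f14 (-12.8), the last-exon peak of Cyp4f13 (-9.45) and an intron peak of Cyp2w1 (-8.04). None of these 10 passed the test (adjusted p = 0.776 to 0.843 by limma).

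**Figure D4:**
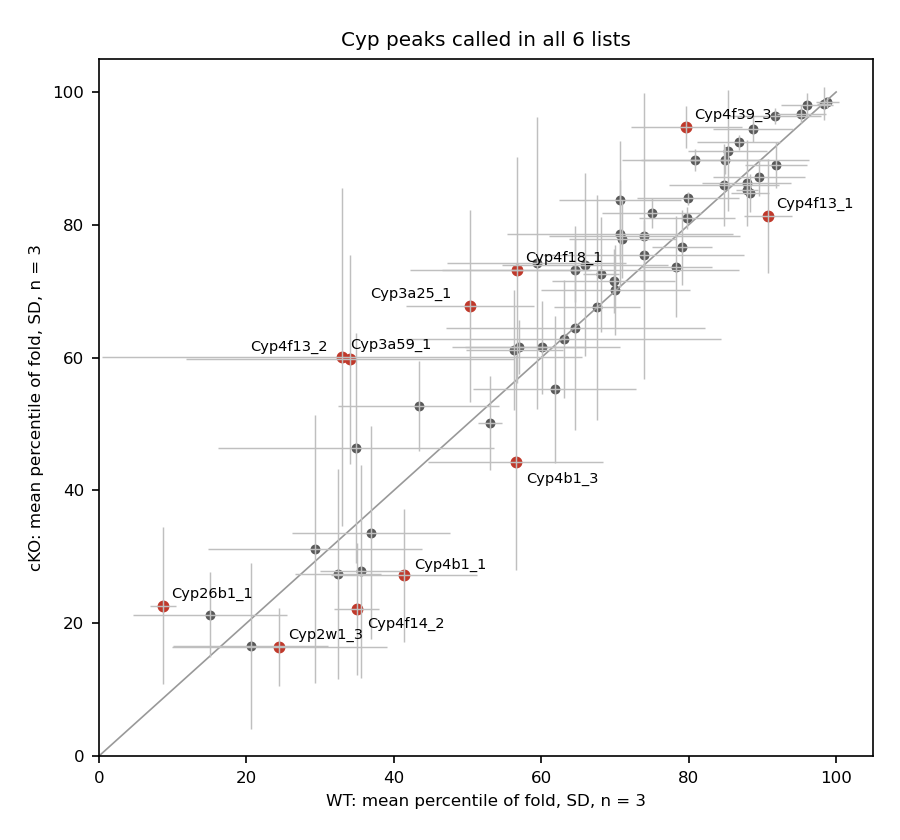
Mean percentile of fold of the 59 Cyp peaks called in all 6 lists, in WT (x axis) and cKO samples (y axis), with bars of 1 SD (n = 3 each). Red points are the 11 named peaks with the largest differences or smallest p. Of the points, 37 lie above the diagonal and 22 below it, against 16168 higher and 16580 lower among all 32748 peaks called in 6 lists.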

How the data were processed

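ATAC-seq peak lists of 3 WT and 3 Arid3a cKO samples of mouse intestinal crypts were used, grouped by their titles. The authors ran nf-core/atacseq: Trim Galore, BWA, filtering with SAMtools and BEDTools, and MACS2 narrow peaks on GRCm38 (effective genome size 2.6 Gb, blacklist removed), with 1 list deposited per sample. The deposited columns hold a score, the fold over background at the summit as a ratio, −log10 p and −log10 q, all written by the authors' peak caller. Fold is relative to local background within a library, so values were ranked within each list and turned into normal scores. The depth in reads is unknown, and list length limits what could be called.

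Peaks overlapping by at least 1 base were merged into consensus peaks, and 61 to 92 peaks per list outside the assembled chromosomes were left out. Genes came from the Ensembl 95 level annotation of GRCm38. Peaks called in all 6 lists were compared by limma 3.58.1 in R 4.3.3 (Benjamini-Hochberg, threshold 0.05), since the count model of the study's methods cannot be run on peak lists. The fit was run on simulated scores with independent noise and known shifts, all larger than the named Cyp differences of the main fit. That run checks the code and does not measure the power to find differences of the size reported here. The labels do not name the animals, so p-values measure the spread between these samples, and a permutation test of 3 against 3 cannot go below 0.1. Python 3.11.15, numpy 2.4.6, pandas 2.3.3, scipy 1.17.1 and matplotlib 3.10.9 were used.

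Named were the Cyp genes known in intestinal epithelium, the 10 highest and 5 lowest constant promoters by their lowest percentile, all promoters called in 1 to 5 lists, all peaks of one genotype alone, any peak past the test, the 5 largest differences in each direction, and genes with 10 or more peaks, of which there were none. The members and gene lists were chosen with earlier results of these data known. Genes named beyond this rule, such as the last exons of Cyp4f and the Cyp26b1 intron peak, were chosen after their values were seen. Alternatives changed the values ranked, the peaks fitted, the q threshold, list length, consensus, windows and promoter, and left out each sample. A further list of genes was examined and is not reported here.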

Additional observations from a re-analysis of the deposited data

How the results depend on the processing

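The count of 0 limma calls held in all 15 alternative fits, for all peaks and for Cyp peaks (lowest adjusted p = 0.306, without cKO 2, where 5108 peaks and 9 Cyp peaks had an unadjusted p under 0.05). The 9 Cyp4f genes with a last-exon peak in every list were counted under each of 12 alternatives, and Cyp genes with a promoter in every list ranged from 24 to 29. The number of Cyp peaks fell to 83 with the gene body alone as window. The number of cKO-only Cyp peaks, 2, was 1 with a −log10 q of at least 5, 0 in lists of equal length, 1 with summit windows overlapping by 50%, 1 where the nearest start of any gene had to be a Cyp gene, and 2 to 5 with 1 sample left out. WT-only peaks numbered 0 to 4 with 1 sample left out, and leaving 1 out makes the rule for both counts less strict. All differences of the 11 named peaks kept their direction wherever they could be fitted. With the replicate block, 0 peaks passed, and 1517 peaks and 3 Cyp peaks had an unadjusted p under 0.05. The deviations of same-numbered samples from their group means correlated at -0.272, -0.0186 and 0.125, and those of other pairs at -0.328 to 0.308. With 3 samples per group these values cannot show whether samples were paired, and the labels do not say. The main fit did not pair them. The cause of the moved counts was not tested. The rank-based alternative, the promoter set by the leading list and the last-exon count were chosen after seeing the data. Peak lists limit all results, since a site under the calling threshold has no value.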
